A study of Mus musculus with 1307 samples.

Results

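Elastic fibres and the microfibrils they form on were followed at the transcript level through 10 genes, chosen by name from the 46517 genes counted in mouse heart cells. The genes, and the lists, gates and classes used below, were chosen with earlier results of these data known. Counts of calls and medians therefore describe the set and are no independent test of it. The set holds Eln (elastin, the polymer core), Lox (lysyl oxidase, which crosslinks it), Fbn1 (fibrillin-1, the backbone of microfibrils), Mfap4 and Mfap5 (microfibril-associated glycoproteins), Ltbp2 and Ltbp4 (latent TGF-beta binding proteins) and Fbln1, Fbln2 and Fbln5 (fibulins). All 10 symbols matched 1 row each, and all 10 passed the filter on low counts, which was set once over all classes. With only Rgs5-high and pericyte-like sums in the fit, 9 passed and Ltbp2, near 0 in both, did not. In GENCODE M21 (GRCm38) the annotation places Eln at chr5:134702593-134747323, Lox at chr18:52516067-52529867, Fbn1 at chr2:125300594-125507993, Mfap4 at chr11:61485431-61488900, Mfap5 at chr6:122505845-122529290, Ltbp2 at chr12:84783212-84876532, Ltbp4 at chr7:27305136-27337692, Fbln1 at chr15:85205949-85286535, Fbln2 at chr6:91212455-91272540 and Fbln5 at chr12:101746565-101819055. Values are CPM, counts per 1000000, of the reads summed over the cells of a class in a mouse.

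The study sequenced 1307 single cells of adult mouse hearts after sorting them into plates, with Smart-Seq2, which reads cDNA along its whole length. Comparisons here used 3 double-reporter mice (ACTA2GFP:CSPG4dsRED, with green fluorescent protein driven by the smooth muscle actin gene and red fluorescent protein by the NG2 proteoglycan gene of mural cells) of 368, 245 and 336 cells, called mice 1, 2 and 3. All were given as 8 to 30 weeks old, with no treatment in the labels. The design text describes male animals, whereas the labels of mouse 3 say female. A C57BL/6 mouse without a reporter gave 347 cells and stood apart as a description, and 11 cells of 4 more mice (C57BL/6, CSPG4dsRED and ACTA2GFP, of which 1 of the 3 ACTA2GFP cells is labelled female) entered no comparison. Each large mouse filled 1 plate, so mouse and plate cannot be told apart, and the labels do not give the sort gate.

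In textbook terms, fibrillin microfibrils are laid down first and serve as a scaffold, fibulin-5 brings tropoelastin and lysyl oxidases to it, and lysyl oxidase links lysines of neighbouring tropoelastin chains. Latent TGF-beta binding proteins sit on the same microfibrils, and LTBP-4 also takes part in elastin assembly. In the heart, elastic fibres lie in the walls of coronary arteries, in the valves, in the outflow tract and beneath the inner and outer surfaces, and both smooth muscle cells and fibroblasts are known to make them.

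The coding sequence of Eln shows the crosslinking sites that Lox acts on. Lysine pairs spaced by 2 or 3 alanines (AAA or AAG, then GCN repeated, then AAA or AAG, in frame) occur 12 times in its 2580 coding bases. That is the highest number in any of 21487 coding genes of GENCODE release M21, of which 1.103% hold at least 1 such match, and no other gene of the set holds one. The following stretch of 180 coding bases, read on the minus strand of chr5:134718993-134721650 (GRCm38) across 3 coding exons, holds 3 matches, in capitals, of which the last 2 share a lysine codon:

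Eln: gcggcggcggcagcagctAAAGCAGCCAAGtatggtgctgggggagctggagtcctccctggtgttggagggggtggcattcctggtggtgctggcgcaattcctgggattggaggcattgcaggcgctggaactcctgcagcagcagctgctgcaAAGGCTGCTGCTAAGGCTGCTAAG

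A feature shared by 5 of the 10 genes is an in-frame run of codons for arginine, glycine and aspartate (CGN, AGA or AGG, then GGN, then GAC or GAT), the tripeptide that many integrins bind. Of all 21487 coding genes, 7.256% hold such a run. A match describes the letters only. These windows of 45 coding bases show it in capitals, from chr2:125345955-125345999 (Fbn1, minus strand, 1 exon), chr6:91234318-91250868 (Fbln2, plus strand, 2 exons), chr12:101809909-101809953 (Fbln5, minus strand, 1 exon), chr11:61485778-61486054 (Mfap4, plus strand, 2 exons) and chr6:122515359-122520598 (Mfap5, plus strand, 2 exons):

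Fbn1: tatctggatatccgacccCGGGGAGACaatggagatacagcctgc

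Fbln2: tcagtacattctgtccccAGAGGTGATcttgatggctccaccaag

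Fbln5: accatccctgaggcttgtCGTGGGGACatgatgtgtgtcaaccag

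Mfap4: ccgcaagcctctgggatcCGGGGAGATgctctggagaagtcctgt

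Mfap5: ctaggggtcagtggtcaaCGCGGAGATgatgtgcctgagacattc

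The cells were clustered without the 10 genes, 26 other elastic fibre genes and the marker genes, and the clusters were named from the markers. Smooth muscle-like cells (clusters 2 and 6, 248 cells of mice 1 to 3) were split at 1000 CPM of Rgs5, a regulator of G-protein signalling. The Rgs5-high class held 64, 38 and 20 cells of mice 1, 2 and 3, the Rgs5-low class 66, 51 and 9, and 21 cells lay between 500 and 2000 CPM. Cells like pericytes, which wrap capillaries, numbered 47, 14 and 9. A cluster with raised smooth muscle markers and Vtn, the vitronectin gene that marks pericytes, gave 77 and 20 Vtn-positive mural cells in mice 1 and 2, and too few in mouse 3 for a sum. Vtn-positive here means at least 1 Vtn count, which 98 of the 102 cells of that cluster held and 70 at 100 CPM or more. Of the 122 Rgs5-high smooth muscle-like cells, 90 also held a Vtn count and 32 reached 100 CPM. Fibroblast-like cells with at least 500 CPM of Wif1, Chad, Prg4 and Angptl7 together formed the valve-gate class (59, 68 and 54 cells), and those below that with at least 300 CPM of Pdgfra and Tcf21 together the Pdgfra/Tcf21-gate class (6, 25 and 152 cells).

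Some classes carried markers of another. The summed level of 8 fibroblast markers was 839, 575 and 1548 CPM in Rgs5-high cells of mice 1, 2 and 3 but 3447, 7740.5 and 15002 CPM in Rgs5-low cells, with no marker at 0. In mouse 3 the 9 Rgs5-low cells had only 5676 CPM of the 7 smooth muscle markers, against 15678 and 15597 CPM in mice 1 and 2, and 420.0 CPM of Myh11, the smooth muscle myosin gene. The smooth muscle name is therefore weak for that sum. Vtn-positive mural cells had 7302 and 6032 CPM of the fibroblast markers and pericyte-like cells 1488 to 1766 CPM. Of the Rgs5-low cells 28 passed a fibroblast gate, and of the Vtn-positive cells 29 passed the Pdgfra/Tcf21 gate. The part of such cells in the results was not tested beyond the values without them.

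Eln was highest in Rgs5-low smooth muscle-like cells, where each mouse's sum was above every sum of the 2 gated fibroblast classes. In mouse 3 that sum holds 9 cells, 7 of them past a fibroblast gate, and 1 cell gave 37.7% of its Eln counts, against 7.77% and 17.9% in mice 1 and 2. Its level there was 837, 1120.0 and 782 CPM in mice 1, 2 and 3, against 60.98, 79.3 and 7.23 CPM in Rgs5-high cells. The groups did not overlap, and the lowest Rgs5-low sum was well above the highest Rgs5-high sum. Vtn-positive mural cells followed with 491 and 878 CPM, and pericyte-like cells, with the lowest mean of the 6 classes, had 7.32, 4.96 and 4.46 CPM. Among fibroblasts, Eln was even in the valve-gate class (197, 206 and 158 CPM) and uneven in the Pdgfra/Tcf21-gate class (1.81, 634 and 204.1 CPM), where mouse 1 has only 6 cells. Between 55.6% and 72.7% of Rgs5-low cells held at least 100 CPM of Eln, against 0% to 13.2% of Rgs5-high cells and 22.03% to 31.5% of valve-gate cells.

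Lox had its highest mean in the same class, but at a lower level. It stood at 112, 286 and 274 CPM in Rgs5-low cells against 16.7, 55.4 and 1.97 CPM in Rgs5-high cells, which did not overlap. In pericyte-like cells it had 5.61, 0.620 and 0 CPM, where 1 cell gave 94.9% of the counts in mouse 1 and the counts in mouse 2 came to 1. Lox in Pdgfra/Tcf21-gate fibroblasts spread from 11.3 CPM in mouse 3 to 352 CPM in mouse 2, so that class overlapped all the others except pericyte-like cells.

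**Figure D1:**
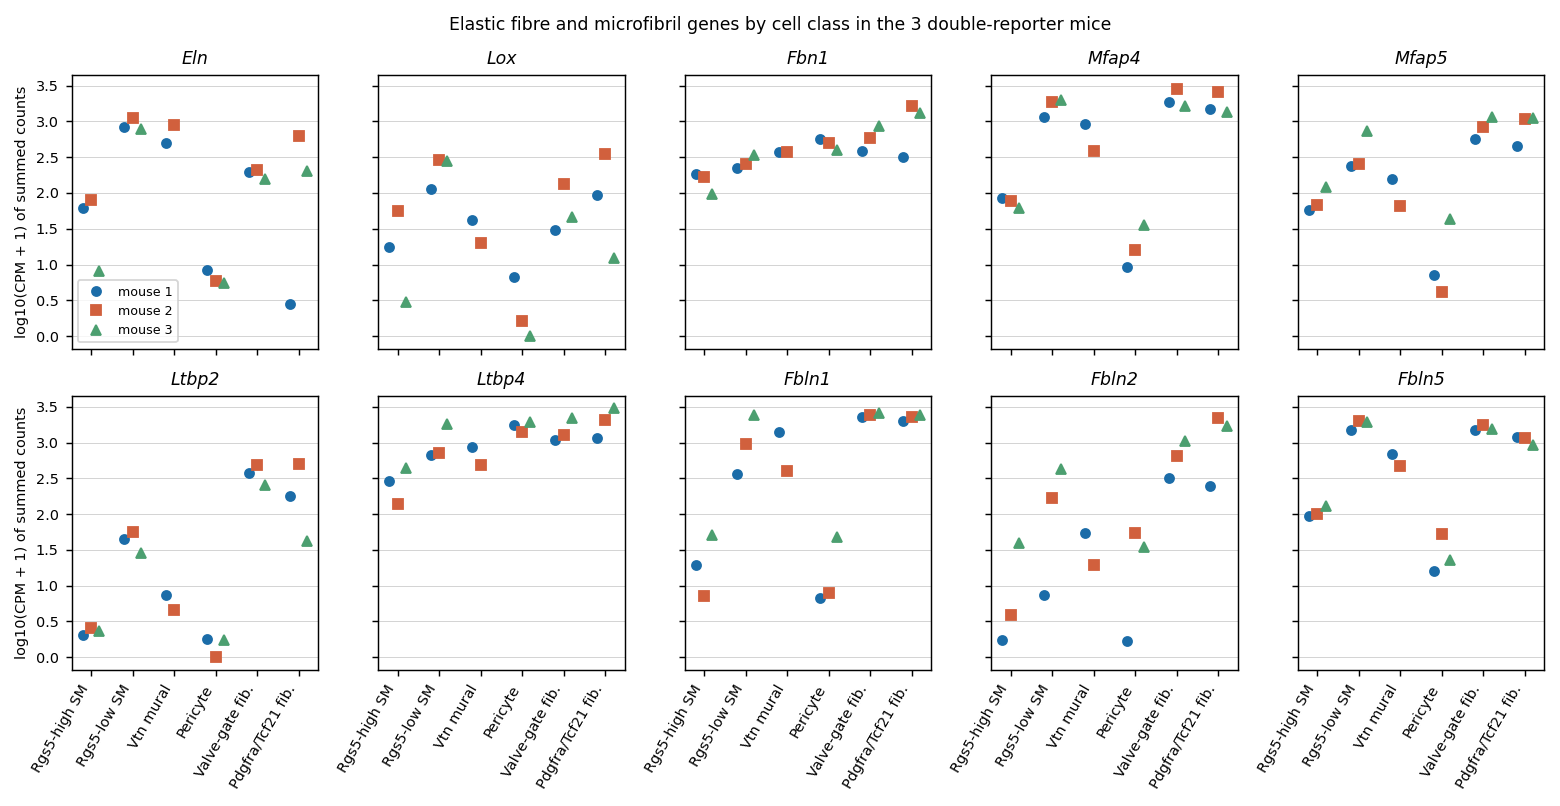
Each panel plots 1 gene as log10(CPM + 1) of the counts summed per class and mouse, with 1 point per double-reporter mouse (Vtn mural has 2). Eln, Lox, Mfap4, Fbln1, Fbln5 and Ltbp2 are high in Rgs5-low smooth muscle (SM) and low in pericytes, whereas Fbn1 and Ltbp4 are high in pericytes.

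Among the microfibril genes, Mfap4 and Mfap5 were higher in every Rgs5-low than in every Rgs5-high sum and low in pericyte-like cells, and Fbn1 was not low there. Mfap4 stood at 84.8, 76.2 and 61.1 CPM in Rgs5-high cells and at 1137, 1871 and 2013 CPM in Rgs5-low cells. Its valve-gate (1874, 2857 and 1616 CPM) and Pdgfra/Tcf21-gate levels (1483, 2566 and 1336 CPM) overlapped the Rgs5-low levels. In pericyte-like cells it was at 8.17, 14.9 and 34.9 CPM, below all sums of the other 5 classes. The Rgs5-high cells of cluster 2 alone, at 9.74, 14.9 and 55.4 CPM, overlapped that range.

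Mfap5 differed less, with 56.1, 66.4 and 122 CPM in Rgs5-high and 241, 254 and 733 CPM in Rgs5-low cells, without overlap. In mouse 2, 95.4% of the Rgs5-high counts of Mfap5 came from 1 cell, and 81.1% of those of Mfap4. Both fibroblast classes had more Mfap5 on average, 561 to 1136 CPM in the valve-gate and 453 to 1118 CPM in the Pdgfra/Tcf21-gate class, and these ranges overlapped that of Rgs5-low cells.

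Fbn1, which encodes the microfibril backbone, went another way. Pericyte-like cells held 559, 506 and 394 CPM of Fbn1, Rgs5-low cells 222, 251 and 343 CPM and Rgs5-high cells 182, 164 and 96.3 CPM, so these 3 mural classes did not overlap. Both sums of Vtn-positive mural cells were at 372 CPM, between Rgs5-low and pericyte-like cells. Fibroblasts spread more widely, from 313 CPM (Pdgfra/Tcf21 gate, mouse 1) to 1651 CPM (mouse 2).

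The genes of the latent TGF-beta binding proteins had unlike patterns. Among the mural classes Ltbp4 had its highest mean in pericyte-like cells, with 1766, 1412 and 1909.8 CPM, and its lowest in Rgs5-high cells, with 288, 139 and 436 CPM. Rgs5-low cells (671, 722 and 1814 CPM) overlapped the pericyte-like cells through mouse 3, and Vtn-positive cells had 872 and 491 CPM. Ltbp4 was also the gene present at 100 CPM or more in the largest share of pericyte-like cells, 85.7% to 100%. Ltbp2 was near 0 in pericyte-like cells (0.781, 0 and 0.743 CPM) and Rgs5-high cells (1.06, 1.58 and 1.31 CPM) and reached 44.0, 55.3 and 27.8 CPM in Rgs5-low cells. Valve-gate fibroblasts had the highest mean, from 373, 487 and 256 CPM, without overlap with any mural class. The Pdgfra/Tcf21-gate sums of 178, 502 and 40.6 CPM overlapped them.

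Among the fibulins, Fbln5, which binds both elastin and integrins, was set apart in smooth muscle. It stood at 1517, 2021 and 1904 CPM in Rgs5-low cells, against 94.0, 99.9 and 129 CPM in Rgs5-high cells. In valve-gate fibroblasts it reached 1478, 1769 and 1556 CPM and overlapped the Rgs5-low range. Of the Rgs5-high counts of Fbln5, 1 cell gave 92.5% in mouse 2 and 80.4% in mouse 3.

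Fbln1, a component of elastic fibres and basement membranes, was a fibroblast transcript first of all, at 2296, 2411 and 2579 CPM in valve-gate cells and 1989.9, 2295 and 2392 CPM in Pdgfra/Tcf21-gate cells. In Rgs5-low cells it was 358, 967 and 2415 CPM, lowest in mouse 1 and highest in mouse 3, as the summed fibroblast markers were. Fbln2, Fbn1, Mfap4, Mfap5 and Ltbp4 had the same order of mice in that class, and Eln, Lox, Fbln5 and Ltbp2 did not. Rgs5-high cells had 18.4, 6.19 and 49.3 CPM of Fbln1 and pericyte-like cells 5.61, 6.82 and 46.1 CPM, and these classes overlapped. Fbln2, a fibulin of basement membranes and elastic fibres, had 6.30, 169 and 425 CPM in Rgs5-low cells and was highest in the Pdgfra/Tcf21-gate class of mice 2 and 3 (2182.4 and 1680.3 CPM). In mouse 3 low counts of Fbln1 were widespread: after thinning each cell to 50000 counts, 100% of 9 pericyte-like and 77.4% of 31 macrophage-like cells held one, at 46.1 and 30.1 CPM. In mice 1 and 2 the pericyte-like shares were 36.2% and 28.6%. Whether values of that size in mouse 3 come from the cells themselves was not tested.

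Per kilobase of the longest protein-coding transcript, which allows genes to be set side by side, Mfap4 led in the classes rich in these transcripts. Its mean was 1229 CPM per kb in valve-gate, 1042 in Pdgfra/Tcf21-gate and 972 in Rgs5-low cells, against 237 CPM per kb of Eln and 311 CPM per kb of Fbln5 in Rgs5-low cells. These values depend on the transcript: by the one with the longest coding sequence, Fbln5 (2371 in place of 5829 bases) came to 765 and Mfap4 (939 in place of 1722 bases) to 1783 CPM per kb there. Pericyte-like cells were led by Ltbp4 at 315 CPM per kb, and no other gene of the set passed 40.6 CPM per kb there. Summed over the 10 genes, pericyte-like cells had 391, 338 and 460.5 CPM per kb, Rgs5-high cells 196, 179.8 and 252 CPM per kb, and Rgs5-low cells 1570.5, 2416 and 3361 CPM per kb. The 3 classes did not overlap. Valve-gate fibroblasts had 2755, 3744 and 3446 CPM per kb, a range that overlapped that of Rgs5-low cells.

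**Figure D2:**
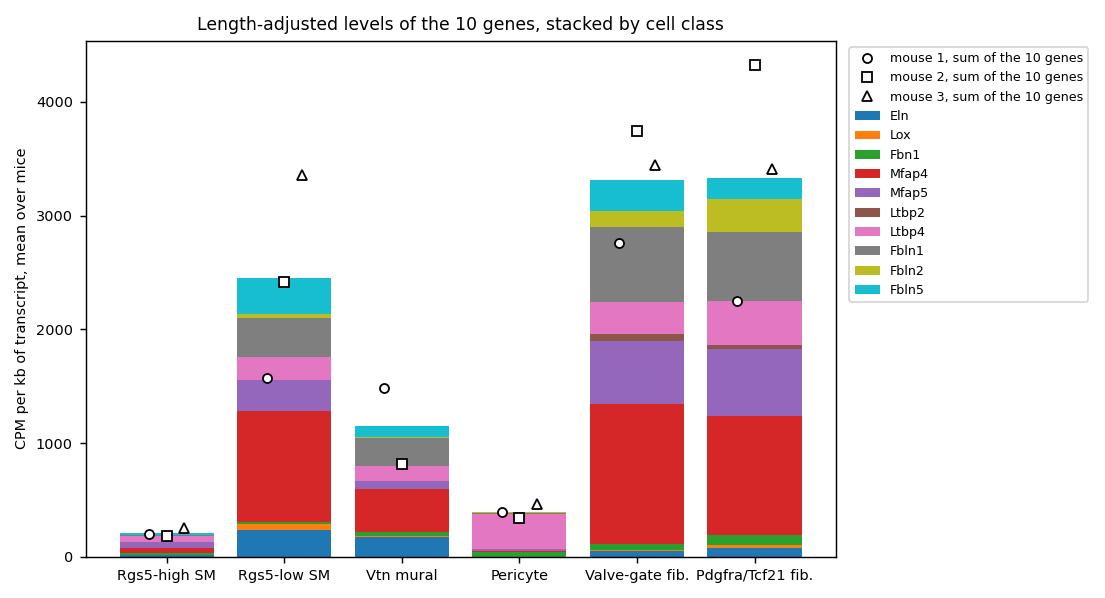
Stacked bars give the mean CPM per kb of transcript of each gene over mice in 6 classes, and open symbols the sum of the 10 genes in each mouse. Mfap4 takes the largest part in Rgs5-low smooth muscle and both fibroblast classes, and Ltbp4 in pericytes.

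The first comparison asked how the set differs within smooth muscle. In the edgeR quasi-likelihood fit over 17509 genes with the mouse as a block, 5 of the 10 genes were higher in Rgs5-low than in Rgs5-high cells and 0 lower, where 1.12% of all tested genes were called higher and 0.211% lower. The 5 were Fbln5 (log2 change 4.01, SE 0.36, edgeR adjusted p = 0.00013), Mfap4 (4.40, SE 0.54, edgeR adjusted p = 0.00123), Fbln1 (5.67, SE 0.77, edgeR adjusted p = 0.00243), Ltbp2 (4.97, SE 0.77, edgeR adjusted p = 0.00613) and Ltbp4 (1.80, SE 0.34, edgeR adjusted p = 0.0182). Eln had a log2 change of 4.38, as large as that of Mfap4, but an SE of 1.18 and an edgeR adjusted p of 0.106, although it was higher in 3 of 3 mice. The smooth muscle name is weak for mouse 3. Its Rgs5-low cells had a median of 1059 CPM of smooth muscle markers and 19182 CPM of fibroblast markers. In mice 1 and 2 the smooth muscle medians were 16095.5 and 18636 CPM. Without mouse 1 the edgeR adjusted p of Eln was 0.0342, without mouse 2 0.698 and without mouse 3 0.635. Mfap5 (log2 change 2.15, edgeR adjusted p = 0.0907), Lox (4.13, 0.172), Fbln2 (3.90, 0.18) and Fbn1 (0.78, 0.648) missed the threshold too. The median change was 4.07 over the 10 genes and 0.02 over all tested genes, a description, because genes and gates were chosen with earlier results known.

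Calls in this comparison depended on which cells and which mice were in it. Without cells that carried markers of another class, a choice made after seeing the data, 2 genes were called, Fbln5 (log2 change 3.78, edgeR adjusted p = 0.00052) and Mfap4 (4.17, edgeR adjusted p = 0.0112). The change of Fbln1 was then 4.41 (edgeR adjusted p = 0.0949) and that of Ltbp4 1.18 (edgeR adjusted p = 0.403). Without mouse 2, 3 genes were called, and with only these 2 classes in the fit, 2. Over all genes, 233 of 17509 were called in the fit above and 43 of 16801 without cells with markers of another class. The calls were 40 of 19579 without mouse 2, 21 of 13036 with only these 2 classes and 81 of 17142 with marker gates alone. With marker gates alone only Eln was called (log2 change 3.71, edgeR adjusted p = 0.0136).

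Rgs5-low cells were not alike in these transcripts. For Eln and Mfap4 the 2 smooth muscle clusters differed more than the Rgs5 classes within cluster 2. Within smooth muscle cluster 2, the 17 and 19 Rgs5-low cells of mice 1 and 2 had 45.0 and 169 CPM of Eln and 8.64 and 18.8 CPM of Mfap4. The 49 and 32 Rgs5-low cells of cluster 6 in the same mice had 1087 and 1551 CPM of Eln and 1494 and 2709.9 CPM of Mfap4. The 60 and 37 Rgs5-high cells of cluster 2 had 35.9 and 59.2 CPM of Eln and 9.74 and 14.9 CPM of Mfap4. In these 2 genes they were nearer to the Rgs5-low cells of their own cluster. Ltbp4 and Fbn1 instead were lower in the Rgs5-low cells of cluster 2, opposite to the whole classes. Ltbp4 was 248 and 110 CPM in its Rgs5-high and 6.35 and 39.9 CPM in its Rgs5-low cells. Fbn1 was 170 and 167 against 31.4 and 95.3 CPM. Fbln5 was higher in the Rgs5-low cells, at 93.6 and 52.6 against 8.78 and 7.77 CPM. Cluster 6 had Itga8, Sost and Npnt among its leading genes and all 7 smooth muscle markers raised, with 2941 and 1538 CPM of Myh11 in its Rgs5-low cells. With the clusters in place of the Rgs5 split, 7 of the 10 genes were called, Eln among them (log2 change 4.76, edgeR adjusted p = 0.0416). Over all genes 523 of 17355 were then called.

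Fibroblast-gate cells were removed from the Rgs5-low class to see the levels in the remaining 59 and 37 cells of mice 1 and 2. Eln was 809.6 and 788 CPM there, Fbln5 1509 and 1408, Mfap4 1158 and 1259 and Lox 117 and 165 CPM, with 3375 and 3703 CPM of Myh11. Fbln1 was 327 and 295 CPM and Dcn, a fibroblast marker, stood at 897 and 745 CPM. The 7, 14 and 7 cells past a fibroblast gate in mice 1, 2 and 3 had 1053, 1662 and 730.2 CPM of Eln. Their Fbln1 was 606, 2063 and 2926 CPM and their Dcn 1424, 4408 and 6439 CPM. The gates read only Wif1, Chad, Prg4, Angptl7, Pdgfra and Tcf21, so cells that failed both can still hold other fibroblast transcripts. Dcn in the Rgs5-high cells of cluster 2 was 64.3 and 62.9 CPM in mice 1 and 2, below its level in the remaining Rgs5-low cells. Whether fibroblast transcripts have a part in their Eln, Fbln5 and Mfap4 was not tested.

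**Figure D3:**
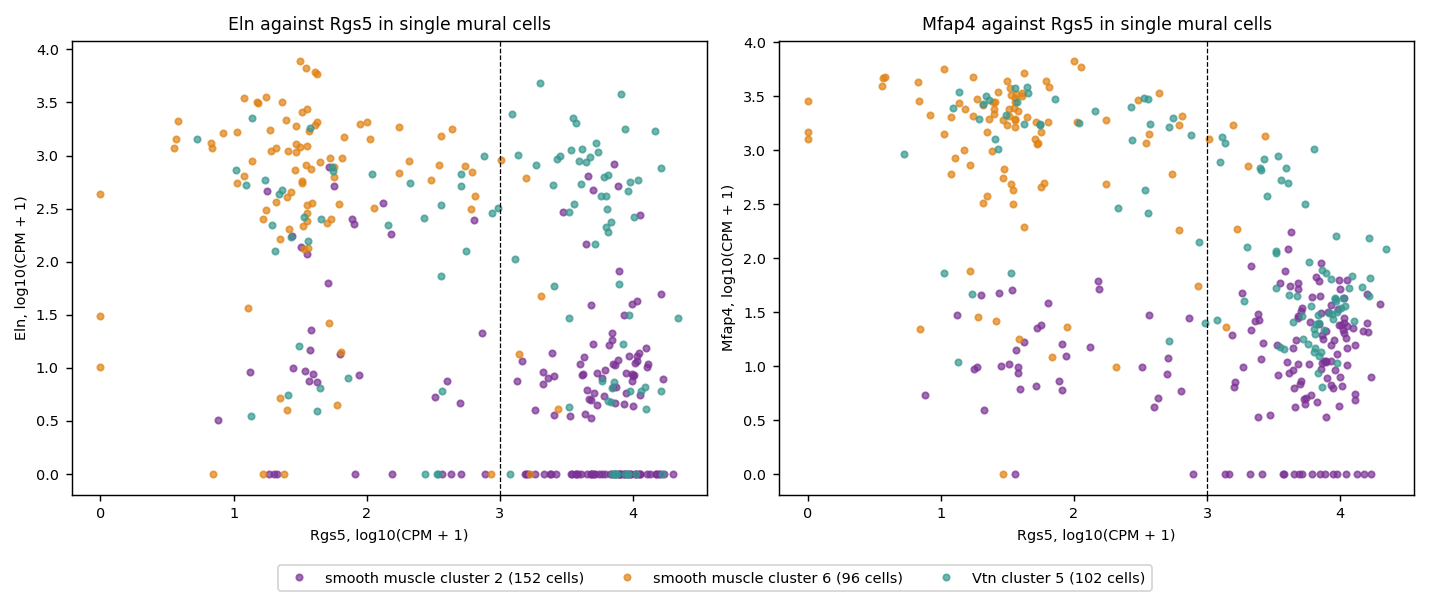
Each point is 1 cell of mice 1 to 3, with log10(Rgs5 CPM + 1) on the x axis and log10(CPM + 1) of Eln (left) or Mfap4 (right) on the y axis. The dashed line is the 1000 CPM split. Left of the line, 78 of 90 cluster 6 cells and 11 of 36 cluster 2 cells held at least 100 CPM of Eln, and 80 and 0 at least 100 CPM of Mfap4. Right of it, 37 of 64 Vtn cluster cells held that much Eln, 19 that much Mfap4, and 7 of 116 cluster 2 cells that much Eln.

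Across single Rgs5-low cells, the genes of the set went with Eln to unequal degrees. Spearman's rho with Eln was 0.533 and 0.571 for Mfap4 over 66 and 51 cells of mice 1 and 2, 0.503 and 0.593 for Fbln5 and 0.499 and 0.472 for Lox. It was 0.459 and 0.236 for Fbn1, 0.0593 and 0.365 for Ltbp2 and -0.0979 and 0.285 for Fbln2. With Dcn it was 0.153 and 0.212 and with Acta2, smooth muscle actin, -0.374 and -0.339. In valve-gate fibroblasts rho of Eln with Mfap4 was 0.452, 0.277 and 0.352 over 59, 68 and 54 cells, with Fbln5 0.234, -0.0812 and -0.0695, and with Lox 0.239, 0.242 and -0.187. In Vtn-positive mural cells rho with Mfap4 was 0.0898 and -0.0481 over 77 and 20 cells. Cells of a mouse share its plate, and these values are descriptions.

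The next comparison set each mural class against pericyte-like cells. In Rgs5-low cells 7 of the 10 genes were higher and 0 lower (2.67% of all tested genes were higher and 0.857% lower). Eln (log2 change 7.31, SE 1.36, edgeR adjusted p = 0.00805), Lox (6.98, SE 1.44, edgeR adjusted p = 0.0145) and Mfap4 (6.55, SE 0.61, edgeR adjusted p = 4.54e-05) were among them, with Fbln1, Fbln5, Mfap5 and Ltbp2. Fbn1 (log2 change -0.83, edgeR adjusted p = 0.403), Ltbp4 (-0.77, 0.258) and Fbln2 (2.55, 0.272) did not pass. The median change over the 10 genes was 6.13, against 0.32 over all tested genes. Eln and Lox lost their calls without mouse 2 (edgeR adjusted p = 0.199 and 0.204) or without mouse 3 (0.112 and 0.0796). Without cells with markers of another class 6 genes were called, Eln among them (edgeR adjusted p = 0.0287), beside 432 of 16801 over all genes. With classes drawn by marker gates alone, without clusters, only Eln was called (log2 change 4.24, edgeR adjusted p = 0.0059).

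Rgs5-high cells differed from pericyte-like cells in both directions. Ltbp4 was lower (log2 change -2.56, SE 0.35, edgeR adjusted p = 0.00198), while Fbln5 (2.10, SE 0.34, edgeR adjusted p = 0.00523), Mfap5 (2.78, SE 0.59, edgeR adjusted p = 0.0286) and Mfap4 (2.15, SE 0.51, edgeR adjusted p = 0.0499) were higher. Over all tested genes 1.25% were higher and 0.702% lower, with a median change of 0.25 against 1.65 over the 10 genes. In cluster 2 alone the Rgs5-high cells had 8.78, 7.77 and 26.5 CPM of Fbln5 and 1.35, 3.14 and 39.9 CPM of Mfap5 in mice 1, 2 and 3. These overlapped the pericyte-like levels of 14.9, 50.9 and 21.5 CPM of Fbln5 and 6.18, 3.10 and 42.3 CPM of Mfap5. Mfap4 was at 9.74, 14.9 and 55.4 CPM in these cluster 2 cells, and pericyte-like cells ranged from 8.17 to 34.9 CPM, so it overlapped too. At least 100 CPM of Mfap4 was held by 2 of the 116 Rgs5-high cells of cluster 2 and 5 of the 6 of cluster 6. With classes drawn by marker gates alone, these 3 log2 changes turned to -0.33, -0.34 and -1.99 for Fbln5, Mfap5 and Mfap4. The lower level of Ltbp4 was also called by DESeq2, which called Fbn1 as well (log2 change -1.76, DESeq2 adjusted p = 0.00922). Without mouse 1 only 1 of the 10 genes was called, without mouse 2, 2, and without cells with markers of another class, 3. Over all genes the calls were then 144 of 17423, 39 of 19579 and 344 of 16801.

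Vtn-positive mural cells had sums in mice 1 and 2. Their cluster had 5 of 7 smooth muscle markers raised but only 2 of 6 pericyte markers, Vtn and Higd1b. Smooth muscle cluster 2 also had 2 pericyte markers raised, Higd1b and Cspg4. Mean Kcnj8 and Abcc9 were 366 and 477 CPM in Vtn-positive cells, against 4132 and 4168 CPM in pericyte-like cells. Against pericyte-like cells 5 genes were higher and 0 lower (1.19% and 0.12% of all tested genes): Fbln5 (log2 change 4.54, SE 0.39, edgeR adjusted p = 7.46e-05), Mfap4 (5.37, SE 0.62, edgeR adjusted p = 0.000557), Fbln1 (6.61, SE 0.85, edgeR adjusted p = 0.0012), Mfap5 (3.81, SE 0.67, edgeR adjusted p = 0.00956) and Eln (6.61, SE 1.37, edgeR adjusted p = 0.0295). Against Rgs5-high cells 3 were higher, Fbln1 (5.97, SE 0.81, edgeR adjusted p = 0.00219), Fbln5 (2.44, SE 0.36, edgeR adjusted p = 0.00451) and Mfap4 (3.22, SE 0.55, edgeR adjusted p = 0.0105), and 0 lower (0.971% and 0.217% of all tested genes). Eln changed by 3.68 there (SE 1.18, edgeR adjusted p = 0.204). Median changes of the 10 genes were 3.58 and 2.07, against 0.22 and 0.00 over all tested genes. Without cells with markers of another class 4 and 3 genes were called, beside 220 and 167 of 16801 over all genes. With marker gates alone only Eln was called in each (log2 changes 4.11 and 3.59, edgeR adjusted p = 0.0148 and 0.0109). Against pericyte-like cells Fbln1, Mfap4 and Mfap5 then reversed, to -1.36, -0.68 and -0.26. Without mouse 1, which leaves 1 Vtn-positive sum that is assumed to vary like the other classes, 2 and 0 genes were called. Both comparisons share their Vtn-positive sums, and they share pericyte or Rgs5-high sums with the comparisons above.

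Within this cluster, Eln and Fbln1 were divided differently. Cells with at least 100 CPM of Vtn (51 and 18 in mice 1 and 2) had 542 and 936 CPM of Eln beside only 314 and 152 CPM of Fbln1, 304 and 373 CPM of Fbln5 and 271 and 205 CPM of Mfap4. The 27 cells of mouse 1 under 100 CPM had 416 CPM of Eln, 3066 CPM of Fbln1, 1304 CPM of Fbln5 and 1869 CPM of Mfap4, with 3593 CPM of Dcn. Split at Rgs5 instead, the 47 and 16 Rgs5-high cells had 547 and 1015 CPM of Eln, where Rgs5-high smooth muscle-like cells of the same mice had 60.98 and 79.3 CPM. These Rgs5-high cells of the Vtn cluster had 5631 and 9237 CPM of Rgs5. With Vtn of at least 100 CPM as the class, a choice made after seeing the data, 5 genes were called against pericyte-like cells and 2 against Rgs5-high cells.

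**Figure D4:**
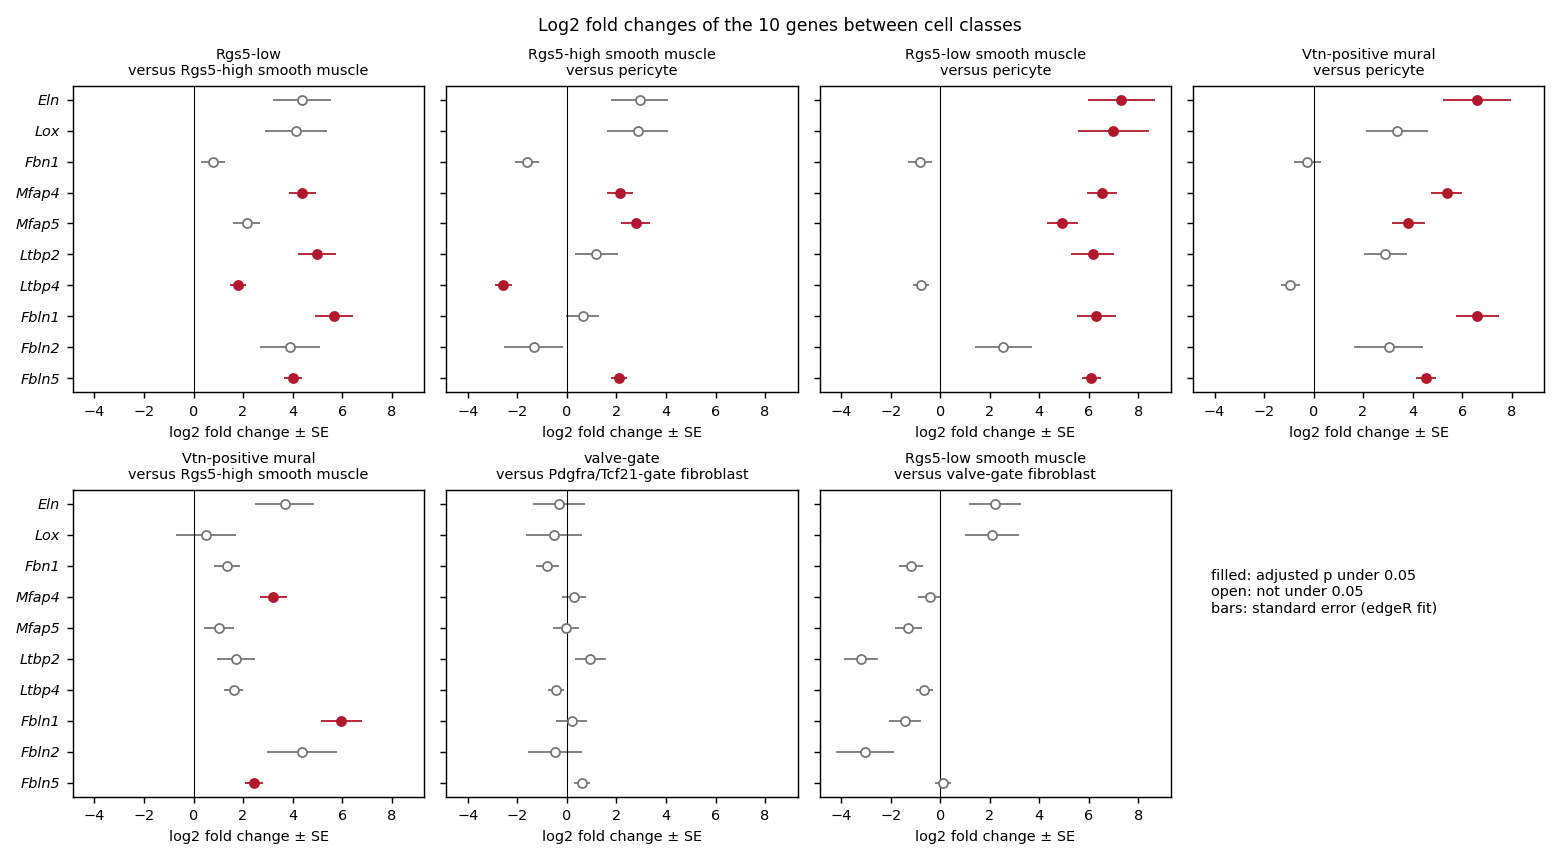
Each panel gives the log2 fold change of the 10 genes in 1 of the 7 comparisons, with bars for the standard error of the edgeR fit. Filled points have an adjusted p under 0.05. The comparison of Rgs5-low cells with pericytes holds the largest change, 7.31 for Eln, and the 2 comparisons with valve-gate fibroblasts hold no filled point.

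Rgs5-low smooth muscle-like cells and valve-gate fibroblasts had overlapping levels of Fbln5 and Mfap4. Their log2 changes were 0.12 (SE 0.31) and -0.43 (SE 0.47). No gene of the set was called (0.423% of all tested genes were higher and 0.137% lower in Rgs5-low cells). Fbn1, Fbln1, Fbln2, Mfap5 and Ltbp2, all lower in Rgs5-low cells, had an unadjusted p under 0.05 in edgeR. The share of all tested genes at that unadjusted level was not counted, so this is no result about the set. Ltbp2 was nearest, with a log2 change of -3.20 (SE 0.67, edgeR adjusted p = 0.0551), and DESeq2 called it (-3.12, DESeq2 adjusted p = 0.000342). Eln was higher by 2.21 (SE 1.06, edgeR adjusted p = 0.622), in 3 of 3 mice and without overlap, though the smooth muscle name is weak for the mouse 3 sum. The median change of the 10 genes was -0.92, against -0.19 over all tested genes. Without cells with markers of another class 0 were called as well, beside 216 of 16801 over all genes.

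Between valve-gate and Pdgfra/Tcf21-gate fibroblasts no gene of the set was called. edgeR called 0 of 10, with 0 at an unadjusted p under 0.05, and DESeq2 called 0, as did edgeR without cells with markers of another class, while edgeR called 0.0228% of all tested genes higher and 0.00571% lower. The largest changes were those of Ltbp2 (0.95, SE 0.64) and Fbn1 (-0.78, SE 0.47), each with an edgeR adjusted p of 1, and the median change was -0.17 over the 10 genes and 0.12 over all tested genes. In simulated counts of this comparison the test recovered 39% of genes changed 4-fold and all of those changed 16-fold. Those counts gave every gene the same spread and had no mouse effect, so small differences, and larger ones with a wide spread, may have been missed. The 57 valve-gate cells that also passed the Pdgfra/Tcf21 gate had 734, 358 and 219 CPM of Eln and 903, 1194 and 1671 CPM of Fbln2, against 103, 124 and 96.5 CPM and 221, 336 and 411 CPM in cells past the valve gate alone. Both genes were higher in the cells past both gates in 3 of 3 mice, a contrast chosen after seeing the values and not tested.

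Fibroblast clusters also differed in the set. Cluster 4, led by Thbs4 and Cilp, where Ltbp2 itself is among the leading genes, had 1074 and 144 CPM of Ltbp2 in mice 2 and 3, against 93.7 and 13.2 CPM in cluster 3. Cluster 12, 14 cells of mouse 3 led by Adgrd1, Gfpt2 and Scara5, had 4075 CPM of Fbn1 and 2239 CPM of Mfap5 but 203.3 CPM of Mfap4 and 30.6 CPM of Eln. Cluster 1, which held most valve-gate cells, had 185 to 443 CPM of Fbln2 in mice 1 to 3, against 1470.0 to 2026 CPM in clusters 3 and 4 of mice 2 and 3. These are single sums per mouse, with no test.

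Over the 17 class sums, the 10 genes fell into sets by likeness. Pearson's r of log2(CPM + 1) was 0.975 between Mfap4 and Fbln5, 0.951 between Mfap4 and Fbln1 and 0.921 between Mfap4 and Mfap5. Fbn1 and Ltbp4 went together (0.798) and apart from Eln (0.193 and -0.0426). Eln was nearest to Lox (0.699) and Fbln5 (0.697). Outside the set, the 2 genes most like each member were Ccn2 (0.875) and Vldlr (0.870) for Eln, Pi15 and Scd2 for Lox, Ifngr1 and Ly6e for Fbn1, Mgst1 and Rcn3 for Mfap4, and Mgst1 and Ptgis for Mfap5. They were Papss2 and Frzb for Ltbp2, Entpd2 and Cd63 for Ltbp4, Apoe and Dcn for Fbln1, C3 and Pi16 for Fbln2, and Ptgis and Aebp1 for Fbln5, with r from 0.880 to 0.984 where not given. Sums of a mouse share its plate and depth, and the values are descriptions.

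**Figure D5:**
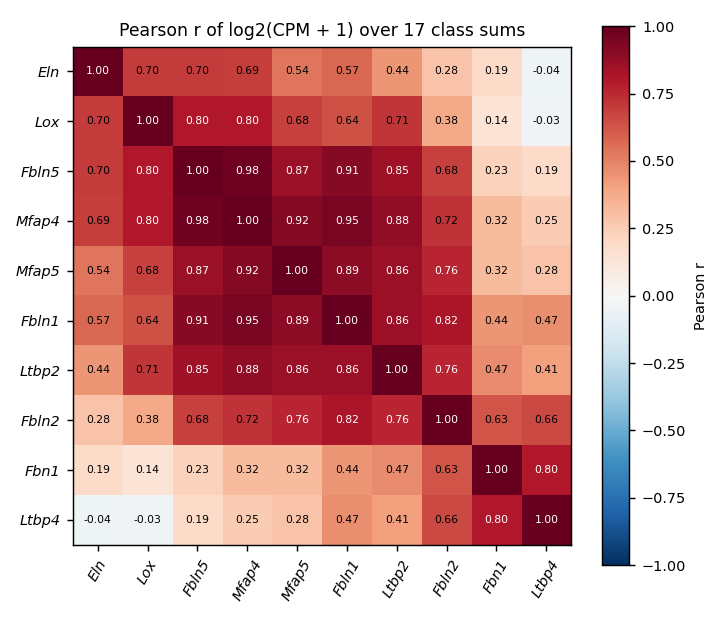
The grid gives Pearson's r of log2(CPM + 1) for each pair of the 10 genes over 17 class sums of mice 1 to 3. Fbln5, Mfap4, Mfap5, Fbln1 and Ltbp2 form a block of high values, from 0.845 to 0.975, and Fbn1 and Ltbp4 a pair of their own.

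Of 26 other elastic fibre and microfibril genes, 5 were higher in Rgs5-low than in Rgs5-high smooth muscle-like cells and 0 lower, with a median change of 1.42 over the list, where 1.12% of all tested genes were called higher and their median was 0.02. Without cells with markers of another class 0 of the 26 were called, and with marker gates alone 1. They included Loxl1, a lysyl oxidase of elastic fibres (log2 change 3.33, SE 0.59, edgeR adjusted p = 0.0131), Efemp1, which encodes fibulin-3 (4.67, SE 0.85, edgeR adjusted p = 0.0154), and Adamtsl2, a microfibril-binding protein (5.93, SE 1.13, edgeR adjusted p = 0.0186). Against pericyte-like cells 6 were higher in Rgs5-low cells (Loxl1, Ltbp1 and Fbln7 first), 5 in Vtn-positive cells (Loxl1, Fbln7 and Efemp1 first) and 2 in Rgs5-high cells, Thsd4, an ADAMTS-like protein of microfibrils (6.96, SE 1.17, edgeR adjusted p = 0.00695), and Ltbp1 (2.97, SE 0.66, edgeR adjusted p = 0.0349), with 0 lower in each. Of all tested genes 2.67%, 1.19% and 1.25% were higher in these comparisons. The counts were 4, 3 and 3 without cells with markers of another class, where 1 gene was also lower in Rgs5-high cells, and 1, 0 and 0 with marker gates alone, where 2 were lower in Rgs5-high cells. Vtn-positive cells had 4 higher than Rgs5-high cells (Loxl1, Efemp1 and Adamtsl2 first) and 0 lower, against 0.971% of all tested genes, with 4 and 2 under the same alternatives. In both comparisons with valve-gate fibroblasts 0 passed in either direction, although without cells with markers of another class 2 were lower in Rgs5-low cells.

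Outside the mural and fibroblast classes, Ltbp4 was the gene of the set found most widely. In the C57BL/6 mouse it reached 1834 CPM in 65 endocardial-like cells, 970.1 CPM in 186 endothelial-like cells of cluster 0 and 807 CPM in 12 Schwann-like cells, against 351 CPM in 10 macrophage-like cells. Schwann-like cells, the glia of nerves, also had 668, 567 and 423 CPM of Fbln5 in mice 1, 2 and 3 and 351 CPM in the C57BL/6 mouse. Their Eln was at 1.72, 1.29 and 2.91 CPM in mice 1, 2 and 3 and at 17.7 CPM in the C57BL/6 mouse.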

How the data were processed

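Hearts were dissociated and single cells sorted into well plates, and libraries were made with Smart-Seq2, per the labels' protocols. The authors deposited raw read counts per gene and cell. The submitters' processing notes name featureCounts, Subread, Bowtie2, Bowtie and bcl2fastq and the build GRCm38 (mm10); versions, annotation and strand setting are not given in the sources used here. Cells held 50476 to 811982 counts (median 274702), and all 1307 passed filters of 10000 counts and 500 genes. No column was left unmatched. Reads carry no molecular identifiers.

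Counts were normalised to 100000 per cell and clustered with scanpy 1.11.5 and leidenalg 0.10.2 (2000 variable genes, 30 components, 15 neighbours, resolution 1). A cluster was named when at least 3 markers reached 100 CPM and 2 times their mean over clusters. The names are rebuilt from expression. No doublet caller was run; cells with markers of another class were left out as an alternative. Counts were summed per mouse and class (at least 5 cells, 17 sums) and tested with edgeR 4.0.16 in R 4.3.3 (quasi-likelihood F test, TMM, filterByExpr, Benjamini-Hochberg over 17509 genes, threshold 0.05). The mouse was a block because the classes come from the same animals; deviations of the sums of a mouse correlated at 0.025 to 0.162 over genes. The design of 7 comparisons in 1 fit left 9 residual degrees of freedom. On simulated counts the test recovered 19% to 39% of genes changed 4-fold and 95% to 100% of those changed 16-fold. The simulation gave every gene the same spread and the mice no effect of their own. How often genes with a wider spread, such as Eln, are called at a given change was therefore not simulated. Alternatives used DESeq2 1.42.0, limma 3.58.1 and other classes.

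CPM per kb used the longest protein-coding transcript of a gene in GENCODE M21 (GRCm38). Sequences were read from the transcript with the longest coding sequence, which is a shorter one for Fbn1, Fbln5 and Mfap4. The labels pair cells with mice. With the mouse as a block, p-values measure how differences between classes vary over the 3 mice, not the spread between mice itself. That variation is pooled over all classes in the fit, and Vtn-positive cells have sums from only 2 mice. The members, lists, gates and classes were chosen with earlier results of these data known. Genes named are the 10 members, the 3 called genes of the other list with the smallest p per direction, and the 2 genes most like each member by Pearson's r among genes of at least 50 CPM on average. Single cells, sums and cluster values named besides these were chosen after their values were seen.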

Additional observations from a re-analysis of the deposited data

Results flagged for a closer look

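The C57BL/6 mouse enters no comparison, and its vessel-lining cells held several of the 10 genes at 100 CPM or more and at 10 or more times their level in the macrophage-like cells of the same mouse. In the 57 cells of endothelial cluster 10, which was led by Alox12, Gja5 and Sox17, Fbln5 reached 1713 CPM, Fbln2 955.7 CPM, Fbn1 123 CPM and Eln 114.9 CPM. In the 11 cells of endothelial cluster 13, led by Mmrn1, Fbln5 reached 605.5 CPM, Fbn1 273.5 CPM and Eln 102.1 CPM. The 10 macrophage-like cells had 3.39, 48.8, 11.9 and 0.339 CPM of Fbln5, Fbln2, Fbn1 and Eln, the last from 1 count, where 3 counts would be 1.02 CPM. These are values of 1 mouse on 1 plate, with no replicate and no test.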

How the results depend on the processing

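Of the log2 changes of the 10 genes recomputed under alternatives, 822 stayed on their side of the threshold. These include any change of sign where neither value was past it. A further 68 kept the direction but were no longer past it, and 32 came to pass it. In 7 the sign reversed with the main or the alternative value past the threshold. The 7 were all with classes drawn by other means. With marker gates alone, Rgs5-high against pericyte-like cells gave -0.33 for Fbln5, -1.99 for Mfap4 and -0.34 for Mfap5, and Vtn-positive against pericyte-like cells gave -1.36 for Fbln1, -0.68 for Mfap4 and -0.26 for Mfap5. With the smooth muscle clusters in place of the Rgs5 split, Mfap5 was at -0.54 against pericyte-like cells. The cause was not tested.

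Counts of genes called moved as follows, with the genes called among all tested in brackets. Between 11557 and 27733 genes were tested, depending on the alternative. Rgs5-low against Rgs5-high cells (5 called, 233 of all genes) gave 9 with DESeq2 (1148), 2 with only the 2 classes compared (21) and 1 with marker gates alone (81). The count was 2 without cells with markers of another class (43), and 3 to 5 without 1 mouse (40 to 128). Rgs5-high against pericyte-like cells (4, 342 of all genes) gave 1 with only the 2 classes (123), 1 with marker gates (464), 2 with the clusters (436), and 1 to 3 without 1 mouse (39 to 144). Rgs5-low against pericyte-like cells (7, 618 of all genes) gave 1 with marker gates (208) and 5 to 6 without 1 mouse (115 to 305). Vtn-positive against pericyte-like cells (5, 230 of all genes) gave 3 with only the 2 classes (57) and 1 with marker gates (51). Without mouse 3, which has no Vtn-positive sum to remove, the count was 4 (166). Vtn-positive against Rgs5-high cells (3, 208 of all genes) gave 6 with DESeq2 (1076), 5 with at least 10 cells per sum (381) and 1 with only the 2 classes (37). The count was 1 with marker gates (137), 5 with the clusters (304) and 3 without mouse 3 (116). In both Vtn-positive comparisons, leaving out mouse 1 or 2 leaves 1 Vtn-positive sum, so those counts are not listed here. How far these calls hold without mouse 1 or 2 is therefore not shown by the drop of mouse 3. Rgs5-low against valve-gate cells (0, 98 of all genes) gave 1 with DESeq2 (643), 1 with no filter on low counts (134) and 2 with only the 2 classes (76). The count was 1 with limma on mean CPM with a pseudocount of 1 (349) and 1 with valve-gate cells past 1 gate only (140). Without any 1 mouse it was 0 (5 to 102). Valve-gate against Pdgfra/Tcf21-gate cells gave 0 throughout (0 to 165).

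Without the mouse as a block the counts were 4, 3, 7, 4 and 3 for the 5 mural comparisons in the order edgeR gave 5, 4, 7, 5 and 3, and 0 for both fibroblast comparisons, so the pairing moved no count by over 1.5 times. The use of clusters, of a Vtn minimum, of 1 fibroblast gate, of another transcript length and of cells free of other markers was chosen after seeing the data. With 2 or 3 mice per class and as few as 6 cells in a sum, differences near 4-fold were often below what the test could call. The larger log2 change of 4.38 of Eln between Rgs5-low and Rgs5-high cells, with an SE of 1.18, was not called either. Whether it is a difference that the test missed was not tested.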
